A study of Mus musculus with 16 samples.

Results

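The oxysterol guidance genes of the lymph node (LN) are described here across its stromal and immune cells. They are Ch25h, Cyp7b1, Hsd3b7 and Gpr183, 4 of the 48440 genes counted, and were chosen by symbol and not by their values. Single cell RNA sequencing had been performed on inguinal LNs of C57Bl/6 mice after enrichment for cells bearing podoplanin (PDPN), a surface protein of fibroblastic reticular cells and lymphatic endothelial cells (LECs). MC38, a colon carcinoma line of the same mouse strain, had been placed under the skin of the lower right flank either live or after fixation in paraformaldehyde, and both inguinal LNs were taken on day 12. The 16 libraries comprised live draining LNs (A to C) and live non-draining LNs (A to C), fixed draining LNs (A to C) and fixed non-draining LNs (A to C), and naive LNs (A to D) of mice that had received no cells. Each library is treated as 1 replicate. Per the study's methods both nodes were collected from each of 3 mice with live and 3 mice with fixed cells, so draining and non-draining libraries came from the same mice. Neither the labels nor the methods tie a letter to a mouse, and the p-values measure the spread between libraries. All tumor-bearing mice carried the same cell line, and the fixed cells serve as an antigen-bearing control that cannot grow.

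Naive B cells, activated T cells and several dendritic cell types find their place in a LN partly by following an oxysterol, a cholesterol molecule with added hydroxyl groups. The enzyme encoded by Ch25h makes 25-hydroxycholesterol, Cyp7b1 adds a further hydroxyl group to give the attractant, and Hsd3b7 encodes the enzyme that inactivates it. The attractant is read by GPR183, also known as EBI2, a G protein-coupled receptor that draws cells toward the outer and interfollicular zones of the node. A gradient therefore depends on where each of the 3 enzymes is made and on which cells carry the receptor.

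After filtering, 50386 cells were kept, 1065 to 5132 per library. Total counts of unique molecular identifiers (UMIs, one per captured RNA molecule) ran from 7486725 to 48945961 per library. The 3 fixed non-draining libraries had the lowest totals as a group, at 7486725 to 13613641, with 1065 to 1785 cells each. Their median UMIs per cell were 3970 to 4365, against 3582 to 3737 in live non-draining libraries. Of all barcodes, 330 occurred in more than 1 library, and no pair of libraries shared more than 0.324% of them. Cells were clustered with the 4 genes withheld, and 64 clusters were named from marker genes with the suffix "-like" where the markers allowed it. A total of 25 clusters stayed unnamed and are called by number and leading genes. In the clustering used throughout, no cluster could be named for B zone reticular cells (BRCs), for which the study itself used Ch25h as a marker. Levels are given as CPM, the UMIs of a gene over all UMIs of the cells of 1 type in 1 library, scaled to the same total in every library. The enrichment for PDPN sets how many cells of each type were seen, so levels per cell type are given rather than totals per node.

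The 4 genes are encoded apart from each other. On GRCm38, the protein-coding gene Ch25h lies at chr19:34473778-34475164 on the minus strand as a single exon of 1387 bases, and Cyp7b1 at chr3:18071950-18243338, also on the minus strand, with 6 exons over 171.4 kb. Hsd3b7 lies at chr7:127800604-127803802 on the plus strand, and Gpr183 at chr14:121952551-121965195 on the minus strand. The sequences before the start of Ch25h and of Gpr183 are shown because these are the 2 genes whose level differed between LNs below. Each runs 5′ to 3′ along the strand of its gene on GRCm38.p6 (RefSeq), from 250 bases before the start to the base before it, at chr19:34475149-34475398 and chr14:121965194-121965443. Capitals mark matches to the motifs searched for.
Ch25h: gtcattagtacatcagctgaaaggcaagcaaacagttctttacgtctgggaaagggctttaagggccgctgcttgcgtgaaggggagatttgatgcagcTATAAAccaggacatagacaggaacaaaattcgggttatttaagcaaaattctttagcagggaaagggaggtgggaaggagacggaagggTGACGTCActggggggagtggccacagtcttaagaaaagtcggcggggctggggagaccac
Gpr183: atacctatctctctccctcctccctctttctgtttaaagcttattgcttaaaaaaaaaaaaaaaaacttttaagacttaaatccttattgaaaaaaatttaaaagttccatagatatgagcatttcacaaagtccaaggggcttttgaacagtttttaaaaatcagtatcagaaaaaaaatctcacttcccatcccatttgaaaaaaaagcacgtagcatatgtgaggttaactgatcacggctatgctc
The capitals in the Ch25h sequence are a TATA box motif (TATAAA, bases 151 to 146 before the start), found in 12.4% of 32851 promoter windows of this length, and a cAMP response element (TGACGTCA, bases 61 to 54 before the start), found in 1.55% of them. The Gpr183 window, of which 32% was G or C, held neither of these on either strand. Neither window held a CCAAT box (CCAAT), a GC box (GGGCGG), an AP-1 site (TGANTCA), an interferon-stimulated response element, an interferon gamma activated site (TTCNNNGAA) or an NF-kB site, which 33.8%, 32.7%, 6.75%, 2.98%, 7.02% and 1.41% of all windows held in this order. The Hsd3b7 window held a GC box and an interferon gamma activated site. These matches are letters in a window and do not show binding.

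The 3 enzymes and the receptor were found in different compartments. Of 10708 Ch25h UMIs, 85.5% ± 4.3 were in fibroblastic cells (SD, n = 16 libraries), which made up 25.2% of cells. Cyp7b1, with 4676 UMIs, was spread over fibroblastic cells (46.2% ± 9.6), LECs (26.8% ± 7.8) and immune cells (22.5% ± 6.0). Hsd3b7 gave only 345 UMIs, of which 58.2% ± 10.2 were in LECs, 21.5% ± 10.9 in immune cells and 17.6% ± 9.9 in fibroblastic cells. Gpr183 gave 8871 UMIs, and 95.3% ± 1.7 of them were in immune cells. In these enriched libraries most UMIs of the enzyme for the first intermediate were thus in fibroblastic cells, most of the degrading enzyme in LECs, and most of the receptor in immune cells. LECs made up 23.9% of cells and immune cells 47.8%. Such shares follow the number and depth of the cells seen as well as the level in each cell type, which is given below.

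**Figure D1:**
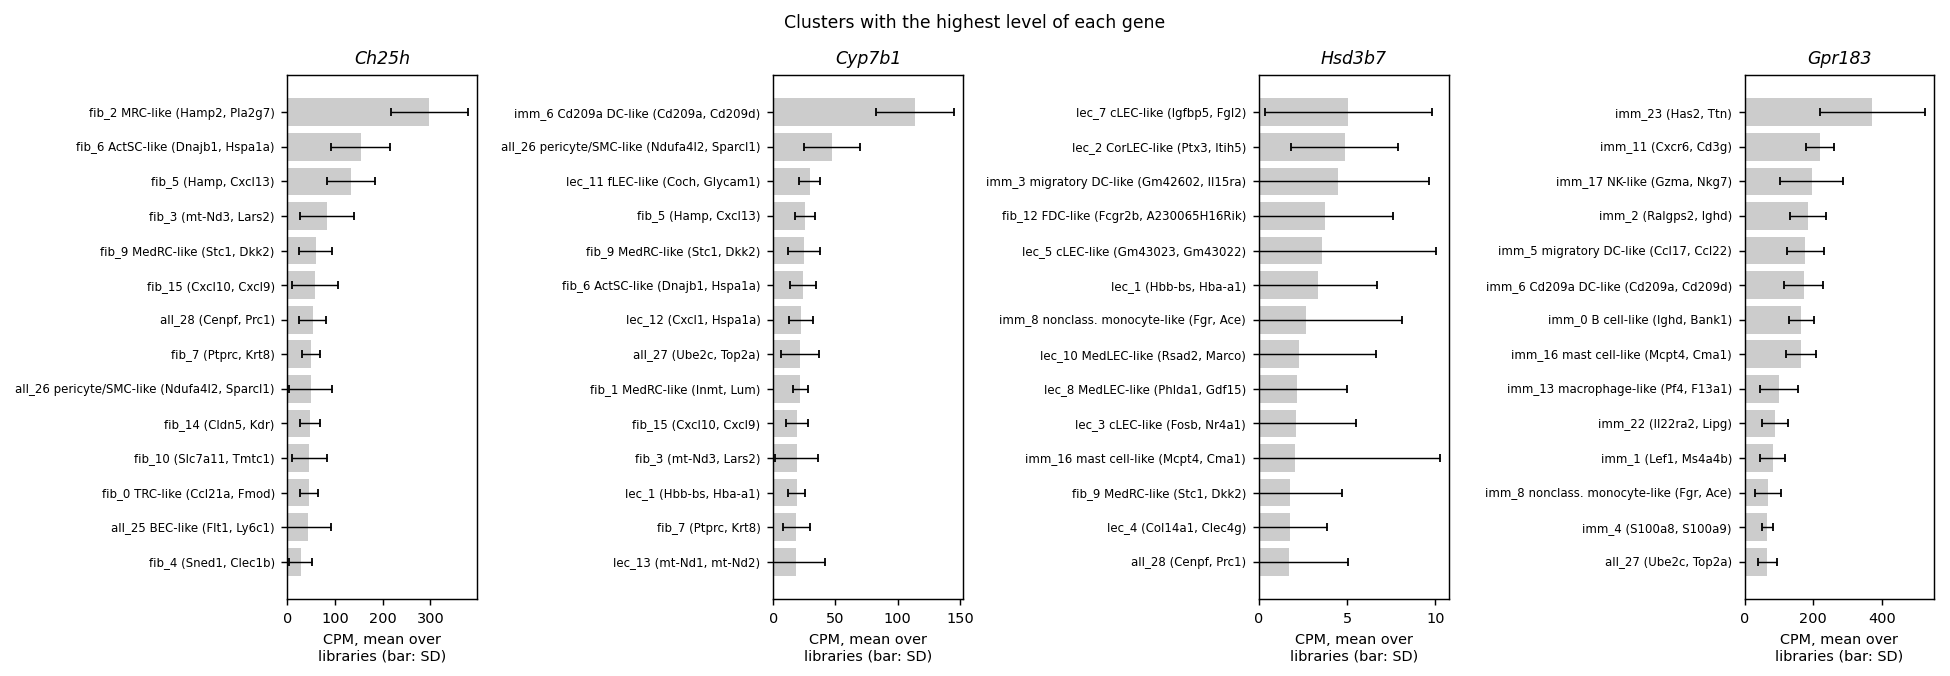
Level of Ch25h, Cyp7b1, Hsd3b7 and Gpr183 (CPM) in the 14 cell clusters with the highest level of each gene, one panel per gene, each with its own axis. Each grey bar is the mean over libraries with at least 10 cells of the cluster and each line its SD, cut off at 0. Ch25h was led by MRC-like cells (298 CPM), Cyp7b1 by Cd209a dendritic cell-like cells (114 CPM), Hsd3b7 stayed near 5 CPM at most, and Gpr183 exceeded 150 CPM in several immune clusters.

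Ch25h was highest in marginal reticular cell-like (MRC-like) cells, a type that lies beneath the endothelium of the subcapsular sinus. They were led here by Hamp2, Pla2g7 and Tnfsf11 (cluster fib_2, 1293 cells). Their level was 298 ± 81 CPM (SD, n = 16, range 149 to 409). Activated stromal cell-like (ActSC-like) cells, led by heat shock genes and Atf3, had 154 ± 62 CPM, and the MRC-like level was the higher of the pair in 13 of 16 libraries. Cluster fib_5, led by Hamp, which encodes hepcidin, and by Cxcl13, a chemokine gene for B cells, had 133 ± 50 CPM. This cluster scored highest for MRC markers and next for BRC markers and was left unnamed. ActSC-like cells and fib_5 were not separated by their spread, with the first higher in 10 of 16 libraries, while MRC-like cells exceeded fib_5 in 15 of 16. Follicular dendritic cells (FDCs), which hold antigen inside the follicle, were at the other end. The FDC-like cluster fib_12 had 0.88 ± 1.8 CPM, below both MRC-like cells and fib_5 in 14 of 14 libraries. With cells clustered after LogNormalize, MRC-like cells again led, with 287 ± 85 CPM, but the ActSC-like name went to 471 cells with 16.8 ± 14.6 CPM, and a BRC-like cluster could be named, with 64.9 ± 36.9 CPM (n = 16 each). The level of ActSC-like cells thus depended on how cells were clustered.

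Within other reticular cells, Ch25h divided clusters that shared a name. T zone reticular cell-like (TRC-like) cells held 44.9 ± 18.6 CPM in cluster fib_0, led by Ccl21a, and 6.88 ± 6.1 CPM in cluster fib_11, with fib_0 higher in 16 of 16 libraries. Medullary reticular cell-like (MedRC-like) cells held 59.3 ± 35.3 CPM in cluster fib_9, led by Stc1 and Dkk2, and 2.44 ± 2.8 CPM in cluster fib_1, led by Inmt and Lum, with fib_9 higher in 14 of 15. Outside the fibroblastic cells, pericyte-like and smooth muscle-like cells had 48.7 ± 45.7 CPM (n = 14). Blood endothelial cell-like cells had 61.6 ± 48.6 CPM (n = 16), and their cluster all_25 alone had 43.3 CPM. Among ceiling LEC-like (cLEC-like) cells, which form the outer wall of the subcapsular sinus, cluster lec_6 had 19.5 ± 15.5 CPM and exceeded cluster lec_0 (4.95 ± 6.8 CPM) in 13 of 16 libraries. A low but uneven level was also present in macrophage-like cells, the Pf4 cluster imm_13 having 16.2 CPM.

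To compare cells at 1 depth, each cell was reduced to 2000 UMIs at random and shallower cells were left out. A Ch25h UMI was then found in 34.7% ± 10.9 of MRC-like cells (SD, n = 16 libraries, median depth before thinning 9851 UMIs), in 20.5% ± 7.7 of fib_5 cells and in 18.5% ± 6.9 of ActSC-like cells. The share was 8.12% ± 5.8 in TRC-like cells of fib_0 and 8.09% ± 4.6 in MedRC-like cells of fib_9. In the Cxcr6 and Cd3g cluster of T lineage cells (imm_11, median depth 5362 UMIs), which should lack the gene and stand for the background of free RNA, it was 0.59% ± 1.2. All the reticular shares named here were above this background. Of 301 FDC-like cells of fib_12 none had a Ch25h UMI, which allows a share of up to 0.997%.

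Cyp7b1 had its highest level outside the stroma. Cluster imm_6, Cd209a dendritic cell-like (Cd209a DC-like) cells, had 114 ± 31 CPM (SD, n = 16, range 55.4 to 189). Pericyte-like and smooth muscle-like cells followed with 47.1 ± 22.3 CPM (n = 14), and the dendritic cell level was the higher one in 13 of 14 libraries with both. Migratory dendritic cell-like cells, by contrast, had almost none, with 0.70 ± 1.6 CPM in cluster imm_5, lower in 16 of 16.

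Stromal Cyp7b1 was low and broad. Floor LECs (fLECs) form the inner wall of the subcapsular sinus, next to the MRCs, and fLEC-like cells of cluster lec_11 (Coch, Glycam1) had 29.3 ± 8.5 CPM. They exceeded the cLEC-like cluster lec_0 (3.12 ± 1.9 CPM) and cortical LEC-like (CorLEC-like) cells (9.46 ± 4.5 CPM) in 16 of 16 libraries each. The fibroblastic clusters followed closely, with 25.7 ± 8.1 CPM in fib_5, 24.6 CPM in MedRC-like fib_9, 24.2 ± 10.3 CPM in ActSC-like cells and 17.8 ± 7.1 CPM in MRC-like cells. Floor LEC-like lec_11 exceeded fib_5 in 9 of 16 libraries and fib_5 exceeded fib_9 in 8 of 15, so these neighbours were not separated. Cluster fib_5 exceeded MRC-like cells in 14 of 16. At 2000 UMIs per cell, 14.2% ± 5.3 of Cd209a DC-like cells, 4.31% ± 4.4 of lec_11 cells and 3.34% ± 2.0 of fib_5 cells had a Cyp7b1 UMI, against 0.071% ± 0.28 in imm_11 (n = 16 each). The cells with the most Ch25h were thus not those with the most Cyp7b1. Inside MRC-like cells a Cyp7b1 UMI was found in 14 of 377 cells with Ch25h (3.71%) and in 4.42% of the other MRC-like cells.

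The Cyp7b1 signal of cluster imm_6 came from a part of its cells. A UMI of Cyp7b1 was present in 270 cells, of a median depth of 5801.5 UMIs, and absent in 1012 cells, of a median depth of 3800 UMIs, and the sums of both kinds of cell were compared within each of the 16 libraries. Gpr183 averaged 354 ± 149 CPM in cells with Cyp7b1 and 97.3 ± 39.7 CPM in cells without it, and was higher in the cells with Cyp7b1 in 16 of 16 libraries. The chemokine receptor gene Ccr9 averaged 254 ± 107 CPM against 20.6 ± 15.4 CPM (16 of 16) and Siglech 66.3 ± 50.9 CPM against 19.3 ± 17.6 CPM (14 of 16). These belong to the marker list for plasmacytoid dendritic cells, but of the other 2 markers on that list Klk1 was at 0 in all cells of the cluster and Cox6a2 averaged 1.49 CPM with Cyp7b1 and 1.99 CPM without. The 4 Cd209a dendritic cell markers summed to 1907 ± 330 CPM with Cyp7b1 and 2481 ± 413 CPM without (higher in 3 of 16). Of these, Cd209a was at 798 ± 173 CPM against 772 ± 169 CPM (9 of 16) and Clec10a at 426 ± 152 CPM against 412 ± 101 CPM (9 of 16), while Mgl2 was lower in cells with Cyp7b1, at 680 ± 254 CPM against 1101 ± 226 CPM (1 of 16 higher), and so was Ccl17, at 2.17 CPM against 197 CPM (0 of 16 higher). Of the classical monocyte markers, Ccr2 was lower with Cyp7b1, at 159 ± 66 CPM against 528 ± 107 CPM (0 of 16 higher), whereas Ly6c2 was higher in 14 of 16 libraries, at 218 ± 495 CPM against 23.0 ± 30.6 CPM. The transcription factor gene Tcf4, Lag3 and Plac8, all chosen after their values were seen, were higher in cells with Cyp7b1 in 16 of 16 libraries, Tcf4 at 2223 ± 416 CPM against 704 ± 237 CPM. S100a9, chosen in the same way, was lower there, at 1.59 ± 3.6 CPM against 752 ± 1155 CPM.

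The difference in Gpr183 was also present at equal depth. At 2000 UMIs per cell, libraries with at least 5 cells of each kind numbered 12, and in 12 of them the share of cells with Gpr183 was higher among cells with Cyp7b1. These shares were furthest apart in live non-draining A, at 66.7% and 10.3%, and closest in fixed non-draining A, at 37.5% and 25.6%. When cells were clustered after LogNormalize instead of SCTransform, most cells of imm_6 went to 2 clusters, 578 of them (45.1%) to one of 708 cells and 590 (46.0%) to one of 1172 cells. The first of these clusters, led by Cd209e, Lag3, Cd209d and Ngfr, scored highest for plasmacytoid and next for Cd209a dendritic cell markers, stayed unnamed, and had 220 ± 71 CPM of Cyp7b1 and 292 ± 104 CPM of Gpr183 (n = 16). The other, which kept the Cd209a DC-like name, had 0.88 ± 1.8 CPM and 34.6 ± 13.2 CPM. The enzyme that completes the attractant and its receptor were therefore recorded together in 1 subset of these dendritic cells, which the markers fixed for naming did not resolve.

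**Figure D2:**
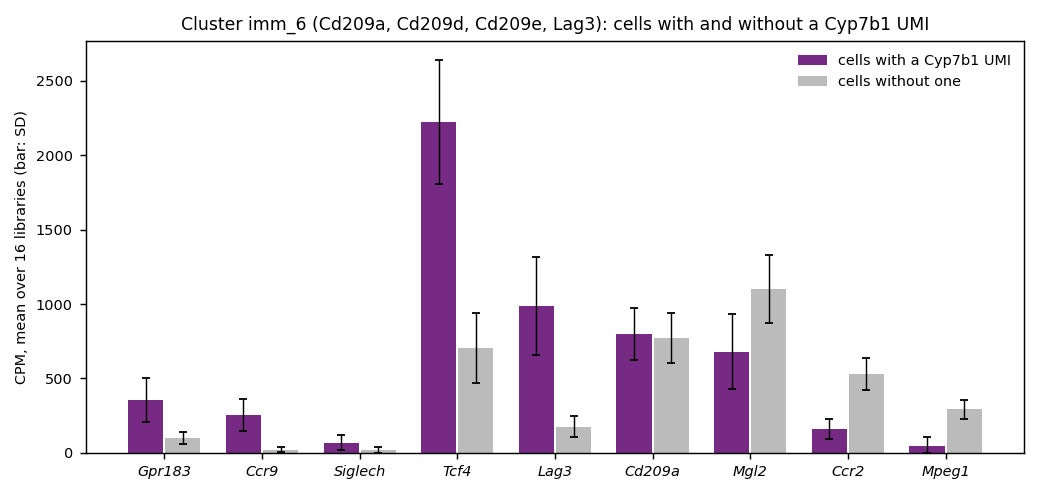
Levels in cells of cluster imm_6 (Cd209a DC-like) with and without a Cyp7b1 UMI. Each bar is the mean over 16 libraries (CPM) and each line its SD, cut off at 0, for 9 genes. Gpr183 and Ccr9 were higher in the cells with Cyp7b1 in 16 of 16 libraries, while Cd209a averaged 798 and 772 CPM and Mgl2 680 and 1101 CPM.

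Hsd3b7 was near the limit of these data and could be tested in no cell type. Its highest level was 5.07 CPM in cLEC-like cluster lec_7 (Igfbp5, Fgl2), then 4.85 ± 3.1 CPM in CorLEC-like cells, 4.47 CPM in migratory dendritic cell-like cluster imm_3 and 3.72 CPM in FDC-like fib_12. The first was higher than the second in 8 of 16 libraries and the second higher than the third in 8 of 16, so the order among them was not resolved. CorLEC-like cells, which occupy the cortical sinuses, did exceed cLEC-like lec_0 (1.33 ± 1.5 CPM) and cluster fib_5 (0.66 ± 1.2 CPM) in 14 of 16 libraries each. At 2000 UMIs per cell, 1.05% ± 1.3 of CorLEC-like cells had a UMI, against none of 810 cells of imm_11, which allows a share of up to 0.370%. MRC-like cells held 2 Hsd3b7 UMIs in 1293 cells, too few to ask whether single cells carry it with Ch25h.

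Gpr183 was shared by lymphocytes, dendritic cells and mast cells. The T lineage cluster imm_11 had 219 ± 40 CPM (SD, n = 16) and natural killer-like (NK-like) cells 195 ± 93 CPM, with the first higher in 9 of 16 libraries. Migratory dendritic cell-like cluster imm_5 (177 ± 54 CPM), Cd209a DC-like cells (173 ± 57 CPM), B cell-like cells (165 ± 36 CPM) and mast cell-like cells (163 ± 44 CPM) lay within 1 SD of each other. A small cluster with Has2, Ttn and Ryr3 among its leading genes (imm_23, 142 cells) had the highest mean, 372 ± 154 CPM, but only 5 libraries held 10 or more of its cells. At 2000 UMIs per cell, 30.4% ± 6.3 of imm_11 cells, 25.2% ± 6.2 of imm_5 cells and 23.6% ± 6.8 of B cell-like cells had a UMI (n = 16 each), against 0.21% ± 0.46 of cLEC-like lec_0 cells.

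Related cells differed widely in the receptor. B cell-like cells exceeded the dividing B lineage cluster imm_9 (24.2 ± 18.8 CPM) and plasma cell-like cells (8.64 ± 7.1 CPM) in 16 of 16 libraries. Migratory dendritic cell-like cells fell into imm_5 (Ccl17, Ccl22, Aldh1a2), imm_3 (Il15ra, Slco5a1; 66.3 ± 50.7 CPM) and imm_12 (9.39 ± 15.7 CPM, n = 15), and imm_5 exceeded imm_12 in 15 of 15 and imm_3 in 15 of 16. The cross-presenting cDC1-like cells of imm_10 had 3.95 ± 3.5 CPM, below Cd209a DC-like cells in 16 of 16. Pf4 macrophage-like cells (imm_13, 101 ± 58 CPM) exceeded the macrophage-like cluster imm_19 (3.09 ± 3.9 CPM) in 14 of 14. Receptor transcript thus marked some subsets of B lineage cells, dendritic cells and macrophages and was low in others of the same lineage.

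The genes whose level over the 21 named cell types was most like that of each of the 4 genes are given as a description, from Pearson's r of log2(CPM + 1) among 12059 genes. Over cell types Ch25h was closest to Fgfr2 (r = 0.82), Adra2a, Tusc5, Notch3 and the retinoic acid-degrading enzyme gene Cyp26b1, and Cyp7b1 to Ptprf (0.86), Ddr1, Ngfr, Arhgap32 and P3h4. Gpr183 was closest to Stk17b (0.95), Pdcd1lg2, Clec2i, Arhgap9 and Dock2, and Hsd3b7 to Svip (0.74), Stk35, Cpne2, 1110032F04Rik and Tbc1d4. Between the 4 genes r was 0.29 for Ch25h with Cyp7b1 and -0.50 for Ch25h with Hsd3b7. Cell types from the same 16 libraries share depth and free RNA, and no test was made.

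Levels in draining and non-draining LNs were then compared on UMIs summed per library and cell type, in edgeR's quasi-likelihood test with Benjamini-Hochberg adjustment over all genes tested in the cell type. The study set live tumors beside fixed cells, so each draining effect was estimated within live and within fixed, and the difference between both effects was tested as an interaction. Between the live LNs, 41 combinations of a gene and a cell type could be tested, and 4 passed an adjusted p of 0.05, 2 higher and 2 lower in live draining LNs. Over all genes and cell types tested 6.28% passed. Between the fixed LNs 1 of 38 passed, where 0.155% of all tests did, and of the interactions 3 of 37 passed, where 2.45% of all did. Without adjustment p was under 0.05 in 16, 8 and 9 of them. Such a p was common among all genes between live LNs, but unevenly, with 4105 of 11874 in cLEC-like cells, 1861 of 9780 in MRC-like cells and 673 of 5616 in B cell-like cells. Between fixed LNs these counts were 970, 545 and 367, and in the interaction 3268, 1274 and 428. These cell types are examples. The share over all tests was not counted for unadjusted p, so the 16, 8 and 9 have no background beside them. Fold changes are log2 values, draining over non-draining.

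Ch25h was lower in MRC-like cells of live draining LNs. The level was 188, 149 and 170 CPM in live draining LNs against 274, 387 and 409 CPM in live non-draining LNs, and the groups did not overlap. In fixed draining LNs it was 325, 327 and 361 CPM against 269, 208 and 287 CPM in fixed non-draining LNs, and in naive LNs it was 339 to 368 CPM. The live draining LNs thus stood below the libraries of each other group. The log2 fold change was -1.02 between live LNs (SE 0.14, edgeR adjusted p = 9.06e-07) and 0.38 between fixed LNs (SE 0.16, adjusted p = 0.848), and the interaction was -1.41 (SE 0.21, adjusted p = 2.71e-05). Among all genes tested in MRC-like cells 3.35% were called lower between live LNs and 1.13% lower in the interaction.

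The difference was not called in the related cluster fib_5, whose Ch25h level was 117, 110 and 130 CPM in live draining LNs against 77.7, 186 and 70.8 CPM in live non-draining LNs (log2 fold change 0.17, SE 0.22, adjusted p = 0.647). MRC-like cells were 54.7% ± 3.0 of both clusters together in live draining LNs and 40.9% ± 3.8 in live non-draining LNs (SD, n = 3 each). With both clusters joined, the live log2 fold change was -0.50 (adjusted p = 0.00883) and the interaction -0.48 (adjusted p = 0.187). Over all fibroblastic cells gated directly on marker UMIs the live log2 fold change was -0.0009 (adjusted p = 0.9997), so no difference was detectable in fibroblastic cells taken as a whole. B cell markers summed to 11.9 to 19.0 CPM in MRC-like cells of live draining LNs and to 0 to 8.06 CPM in those of live non-draining LNs, where Cd79b, Ms4a1 and Pax5 were at 0, and their part in the result was not tested. Nor was a difference called between live LNs in the other named reticular cell types tested. The log2 fold change was -0.02 in ActSC-like cells (edgeR adjusted p = 0.975), 0.12 in TRC-like cells (adjusted p = 0.887) and 0.90 in MedRC-like cells (adjusted p = 0.117). In the unnamed fibroblastic cluster fib_4 it was -2.11 (adjusted p = 0.0538). Within the MedRC-like cluster fib_9 alone Ch25h was called higher in live draining LNs (1.70, adjusted p = 0.00299), as given below.

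**Figure D3:**
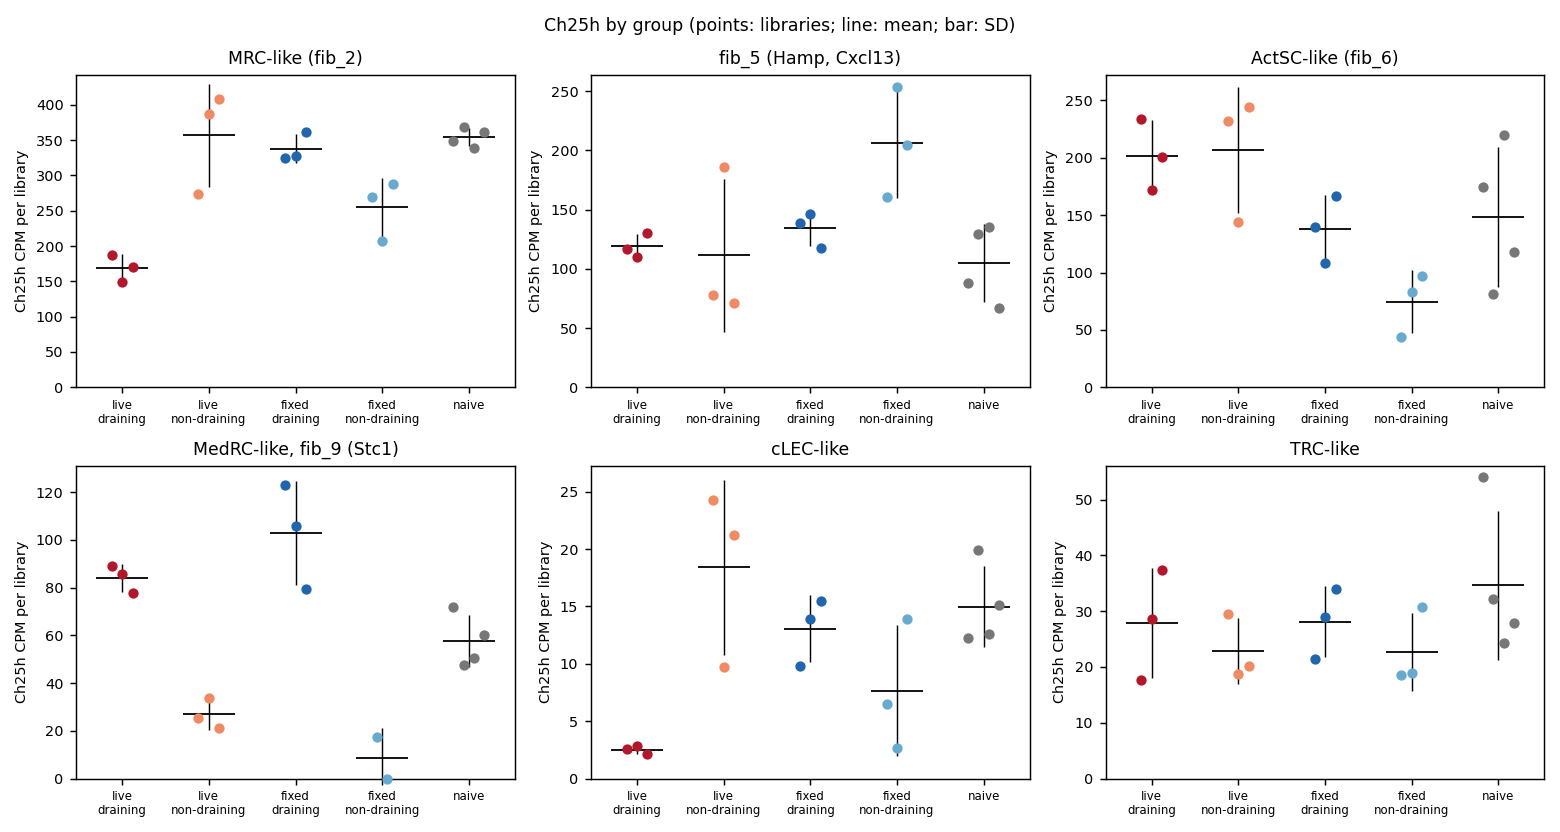
Ch25h level (CPM) per library in the cell types named on the panels, with live draining left of live non-draining, fixed draining left of fixed non-draining, and naive last. Points are libraries with at least 10 cells, horizontal lines are group means and vertical lines are SDs; fib_9 has 2 points for fixed non-draining LNs. In MRC-like cells the live draining libraries lie between 149 and 188 CPM, and in cLEC-like cells between 2.1 and 2.8 CPM.

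Ch25h was also lower in cLEC-like cells of live draining LNs, at a level far below that of MRC-like cells. It was 2.6, 2.8 and 2.1 CPM in live draining LNs against 24.3, 9.8 and 21.2 CPM in live non-draining LNs, from 26 and 84 UMIs. It was 9.8, 13.9 and 15.4 CPM in fixed draining LNs against 6.5, 2.6 and 13.9 CPM in fixed non-draining LNs, and 12.3 to 19.9 CPM in naive LNs. The live groups did not overlap, whereas the fixed groups did. The live log2 fold change was -2.89 (SE 0.37, adjusted p = 7.18e-07), the fixed one 0.80 (SE 0.36, adjusted p = 0.546) and the interaction -3.69 (SE 0.51, adjusted p = 5.55e-06). Of all genes in cLEC-like cells 11.2% were called lower between live LNs and 7.23% lower in the interaction, so many other genes of these cells changed in the same direction.

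The makeup of cLEC-like cells moved with this difference. Cluster lec_6, which held the most Ch25h of them, was 6.12% ± 1.2 of cLEC-like cells in live draining LNs and 26.4% ± 3.5 in live non-draining LNs, while lec_0 was 37.8% ± 0.9 and 12.9% ± 7.0 (SD, n = 3 each). Within lec_6 alone, 1 Ch25h UMI was counted in live draining LNs against 57 in live non-draining LNs, a ratio of pooled CPM of 0.038 (95% interval 0.000945 to 0.220, counting error only), and the call held (log2 fold change -4.53, adjusted p = 0.0198, interaction adjusted p = 0.0181). Fibroblastic markers summed to 239 to 273 CPM in cLEC-like cells of live draining LNs and to 83.9 to 90.7 CPM in those of live non-draining LNs. All 5 had UMIs in both, and their part in the result was not tested.

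Gpr183 was higher in migratory dendritic cell-like cells of live draining LNs. Its level was 125, 170 and 162 CPM in live draining LNs against 72.8, 31.3 and 79.0 CPM in live non-draining LNs. It was 79.6, 96.9 and 79.5 CPM in fixed draining LNs against 120, 134 and 103 CPM in fixed non-draining LNs, and 62.3 to 92.6 CPM in naive LNs. In both pairs the groups did not overlap, and they lay in opposite order, but the fixed difference was not called. The log2 fold change was 1.28 between live LNs (SE 0.19, adjusted p = 2.11e-05) and -0.49 between fixed LNs (SE 0.21, adjusted p = 0.375), with an interaction of 1.77 (SE 0.29, adjusted p = 0.00155). In these cells 7.96% of all genes were called higher between live LNs and 0.411% higher in the interaction.

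Cluster imm_5, the richest in Gpr183, was 44.2% ± 6.0 of migratory dendritic cell-like cells in live draining LNs and 29.9% ± 4.8 in live non-draining LNs, and imm_3 was 34.4% ± 3.0 and 52.3% ± 7.6 (SD, n = 3 each). Within the clusters the live log2 fold change was 1.02 in imm_5 (adjusted p = 0.00365), 1.503 in imm_3 (adjusted p = 0.0282) and 3.78 in imm_12 (adjusted p = 0.0366, 31 UMIs against 3, a ratio of pooled CPM of 14.9 with a 95% counting interval of 4.66 to 76.4). The receptor transcript was therefore higher in each of the 3 clusters taken alone, while the interaction was called in imm_3 (adjusted p = 0.00184) and not in imm_5 (adjusted p = 0.0857) or imm_12 (adjusted p = 0.769). In imm_3 the median depth per library was 1769 to 2075 UMIs in live draining LNs and 2428 to 2793 UMIs in live non-draining LNs, and the median mitochondrial share 14.5% to 16.5% in fixed draining LNs and 17.7% to 21.8% in fixed non-draining LNs, and their part in these differences was not tested. B cell markers summed to 70.4 to 85.9 CPM in live draining LNs and to 50.0 to 75.5 CPM in live non-draining LNs in these cells, and their part in the result was not tested.

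**Figure D4:**
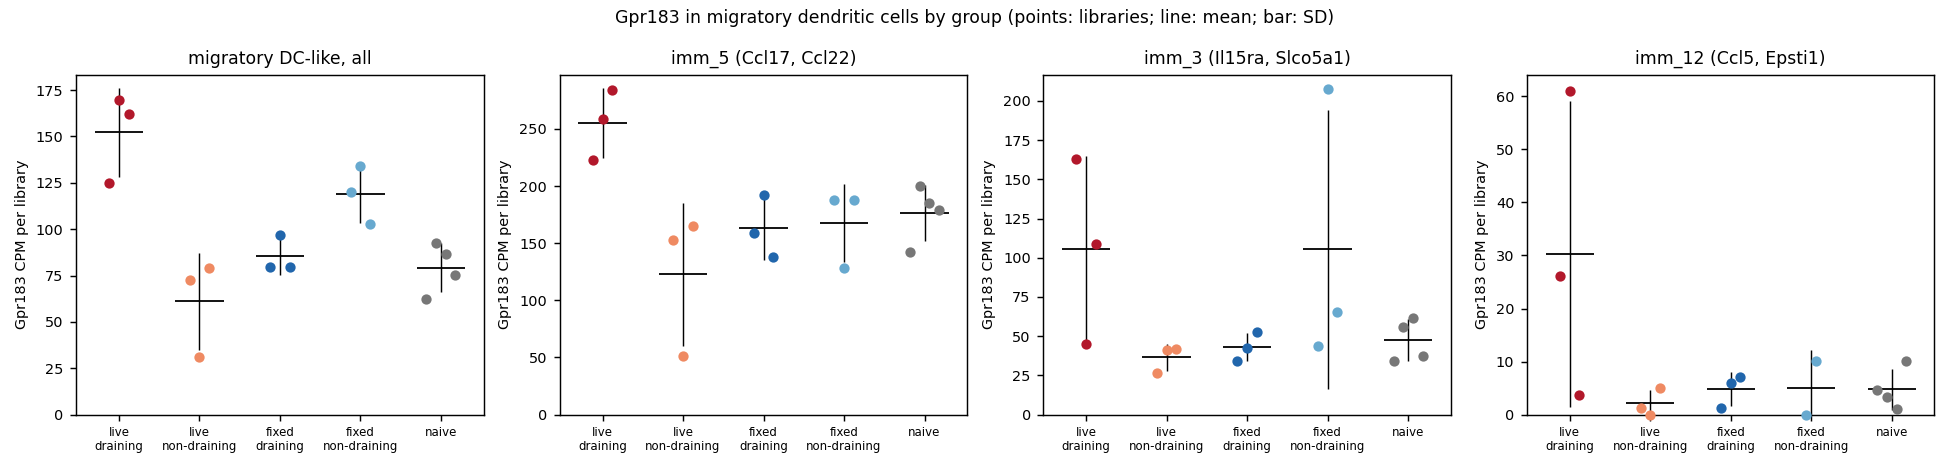
Gpr183 level (CPM) per library in migratory dendritic cell-like cells and in their clusters, with live draining left of live non-draining, fixed draining left of fixed non-draining, and naive last. In the class as a whole the live draining libraries lie between 125 and 170 CPM and the live non-draining ones between 31.3 and 79.0 CPM. Points are libraries, horizontal lines group means and vertical lines SDs.

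Between fixed LNs, Ch25h was higher in MedRC-like cells of draining LNs, the only 1 of the 38 tests that was called. Its level was 49.4, 39.2 and 21.3 CPM in fixed draining LNs against 5.2, 0 and 0 CPM in fixed non-draining LNs, from 114 and 2 UMIs, a ratio of pooled CPM of 15.1 (95% counting interval 4.08 to 126). The log2 fold change was 3.85 (SE 0.70, adjusted p = 0.00606), and 0.0744% of all genes in these cells were called higher. The fixed non-draining libraries had few cells and low UMI totals, and replicates B and C were at 0, so the size of the fold is uncertain. It was 8.65 without fixed non-draining A (adjusted p = 0.0471) and 3.31 without fixed non-draining B, where the call was lost (adjusted p = 0.0542). It was also lost when cells were clustered after LogNormalize (log2 fold change 0.63, adjusted p = 0.777), and among directly gated fibroblastic cells the direction turned (-0.65, adjusted p = 0.800). Within cluster fib_9 alone Ch25h was higher in draining LNs of both kinds, by 3.57 between fixed LNs (adjusted p = 0.00685, with 2 fixed non-draining libraries of at least 10 cells) and by 1.70 between live LNs (adjusted p = 0.00299), where it was 89.0, 85.6 and 77.7 CPM in live draining LNs against 25.5, 33.8 and 21.4 CPM in live non-draining LNs. Over all MedRC-like cells the live difference was 0.90 (adjusted p = 0.117), with fib_9 making up 18.2% ± 2.2 of them in live draining LNs and 36.2% ± 7.9 in live non-draining LNs.

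The remaining call was Ch25h in migratory dendritic cell-like cells, at 2.8, 7.9 and 8.8 CPM in live draining LNs against 0.4, 0 and 2.3 CPM in live non-draining LNs. It rested on 17 UMIs against 4 (ratio 6.91, 95% counting interval 2.25 to 28.2, log2 fold change 2.73, adjusted p = 0.0420) and was lost in 4 of 12 fits that left out 1 library, with log2 fold changes of 2.23 to 2.55 and adjusted p of up to 0.164. Without live non-draining C, which held 3 of the 4 UMIs, it was 4.07 (adjusted p = 0.0312). Among all alternatives, these fits included, the call was kept in 10 and lost in 7. Where it was lost the log2 fold change was 2.23 to 2.86 (adjusted p = 0.0610 to 0.164). LogNormalize was among the latter (2.71, adjusted p = 0.0610). Fibroblastic markers summed to 109 to 165 CPM in these cells of live draining LNs and to 43.8 to 51.2 CPM in those of live non-draining LNs, all 5 with UMIs in both, and their part in this small difference was not tested. In fLEC-like cells Ch25h did not pass the filter on low counts. It had 118 UMIs there in live draining LNs, where cluster lec_9 made up 86.1% of these cells, and 2 UMIs in live non-draining LNs, where lec_9 made up 0.667%. These UMIs came from unequal numbers of cells, 600 in lec_9 of live draining LNs and 73 in lec_11 of live non-draining LNs. The level was 12.7 ± 3.1 CPM in the former and 4.3 ± 7.5 CPM in the latter (SD, n = 3 each). In blood endothelial cell-like cells Ch25h averaged 145 ± 31 CPM in live draining LNs and 46.4 ± 25.5 CPM in live non-draining LNs (SD, n = 3 each). The log2 fold change of 1.59 (SE 0.45, edgeR adjusted p = 0.0948) was not called. In pericyte-like and smooth muscle-like cells it was -2.60 (SE 1.07, adjusted p = 0.196), also not called.

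Cyp7b1 was called in none of 14 cell types between live LNs, of 13 between fixed LNs and of 13 in the interaction, with unadjusted p under 0.05 in 2, 0 and 1 of them. The 2 between live LNs were Cd209a DC-like and fLEC-like cells, where 978 of 7238 and 2325 of 8451 genes had such a p. In Cd209a DC-like cells it was 117, 135 and 189 CPM in live draining LNs against 72.8, 114 and 114 CPM in live non-draining LNs (log2 fold change 0.65, SE 0.25, adjusted p = 0.229), and 55.4, 125 and 93.8 CPM in fixed draining LNs against 122, 93.2 and 104 CPM in fixed non-draining LNs (-0.34, SE 0.27, adjusted p = 0.832). The live groups were set apart only by 117 against 114 CPM, and the difference was not called. In fLEC-like cells Cyp7b1 was 18.2, 15.4 and 19.5 CPM in live draining LNs against 19.8, 47.7 and 38.7 CPM in live non-draining LNs (-0.65, SE 0.32, adjusted p = 0.179). Cluster lec_11, which held nearly all fLEC-like cells of the other groups, showed a log2 fold change of 0.02 (SE 0.44, adjusted p = 0.999). It was only 5.30% ± 1.0 of fLEC-like cells in live draining LNs (36 cells), so this value leaves out most of them.

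Gpr183 in other immune cells did not pass the test. In NK-like cells it was 108, 31.1 and 143 CPM in live draining LNs against 183, 223 and 337 CPM in live non-draining LNs (log2 fold change -1.24, SE 0.38, adjusted p = 0.132). It was 194, 183 and 149 CPM in B cell-like cells of live draining LNs against 174, 217 and 192 CPM in those of live non-draining LNs (-0.07, SE 0.18, adjusted p = 0.935), and the dividing B lineage cluster imm_9 had a log2 fold change of 1.46 (SE 0.48, adjusted p = 0.127). The NK-like groups did not overlap, and the B cell-like groups did. How many of all genes had groups set apart in this way was not counted.

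Other genes of cholesterol and oxysterol handling were followed in 4 lists, fitted in the same way. Sterol synthesis and uptake genes, which SREBP2 induces when a cell is short of cholesterol and which oxysterols repress, moved in cLEC-like cells. Of 21 tested there, 16 were higher and none lower in live draining LNs (median log2 fold change 0.77, against -0.003 over all genes), where 12.7% of all genes were called higher. Fdps, which encodes farnesyl diphosphate synthase, averaged 53.2 ± 4.9 CPM in live draining LNs and 21.4 ± 6.4 CPM in live non-draining LNs (SD, n = 3 each, log2 fold change 1.33, edgeR adjusted p = 5.12e-07). Cyp51 rose by 1.27 on the log2 scale and the squalene epoxidase gene Sqle by 1.84 (adjusted p = 1.50e-05 and 5.03e-05), and Insig1, itself a brake on the pathway, by 0.83 (adjusted p = 0.00116). In fixed draining LNs Fdps averaged 19.5 CPM against 20.4 CPM in fixed non-draining LNs, and no gene of the list was called between fixed LNs. In the interaction 10 of 21 were called higher, beside 7.92% of all genes. The makeup of cLEC-like cells and their fibroblastic markers moved with these genes as given above for Ch25h, lec_5 being 26.9% ± 2.2 of cLEC-like cells in live draining LNs and 7.23% ± 2.6 in live non-draining LNs, and lec_3 12.6% ± 2.8 and 36.4% ± 8.3. Within lec_0 alone 11 of 20 were called higher and all 20 log2 fold changes were above 0 (median 0.97), where 4.47% of all genes were called higher. Within lec_3, lec_5, lec_6 and lec_7 the medians were 0.58, 0.62, 0.57 and 0.11, with 0 of 12, 1 of 10, 0 of 17 and 0 of 7 called by edgeR and an unadjusted p under 0.05 in 3, 4, 6 and 0.

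Some of these genes were lower in the medullary LEC-like (MedLEC-like) cells, which line the medullary sinuses. Of 18 sterol synthesis and uptake genes 5 were lower in live draining LNs and none higher, where 10.4% of all genes were called lower. The sterol carrier gene Stard4 averaged 66.6 ± 13.3 CPM in live draining LNs against 115 ± 15.9 CPM in live non-draining LNs (SD, n = 3 each, log2 fold change -0.73, edgeR adjusted p = 0.00555), and Insig1 (-0.93, adjusted p = 0.0323) was lower with it. The MedLEC-like cells of the live groups lay in different clusters. Cluster lec_10, led by interferon-induced genes, was 75.9% ± 1.1 of them in live draining LNs and 27.3% ± 4.2 in live non-draining LNs, and lec_8, with heat shock genes among its leaders, 15.9% ± 3.8 and 59.8% ± 8.8 (SD, n = 3 each). Within a cluster the difference was not called. In lec_10 edgeR called 0 of 8 sterol genes (0 with an unadjusted p under 0.05), where 7.81% of all genes were called lower, and in lec_8 0 of 13 (1 unadjusted), where 0.342% were. Stard4 had a log2 fold change of -0.56 in lec_10 and -0.40 in lec_8 (adjusted p = 0.236 and 0.650). In fLEC-like cells, whose clusters also differed between the live groups, 3 of 17 were lower, among them Sc5d, where 7.14% of all genes were called lower. The share in cluster fib_5 was near that of all its genes, 2 of 20 being lower, Insig1 (-0.52, adjusted p = 0.0209) and Sc5d (-0.60, adjusted p = 0.0299), where 9.08% of all genes were called lower.

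**Figure D5:**
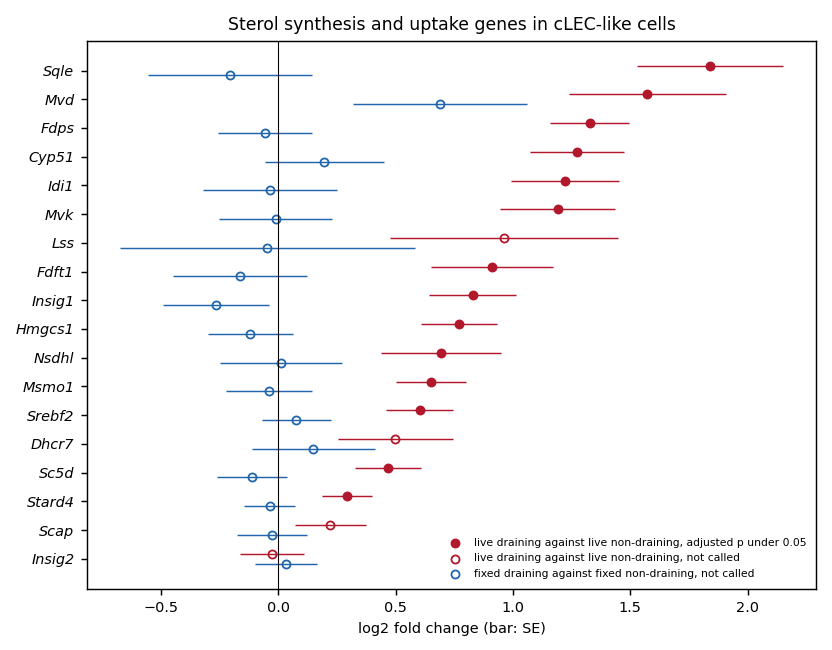
Log2 fold change of 18 of the 21 tested sterol synthesis and uptake genes in cLEC-like cells, for live draining against live non-draining LNs (red) and fixed draining against fixed non-draining LNs (blue), with the standard error as bars. Filled points mark genes called at an adjusted p under 0.05, which were 14 of the 18 between live LNs, all higher, and none between fixed LNs.

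Among other oxysterol enzymes, the mitochondrial hydroxylase gene Cyp27a1 was higher in live draining LNs in MedLEC-like cells (54.1 ± 9.6 CPM against 31.0 ± 9.7 CPM, log2 fold change 0.86, adjusted p = 0.0101) and in fLEC-like cells (34.1 ± 4.4 CPM against 14.6 ± 6.1 CPM, 1.00, adjusted p = 0.0243). It was lower there in MedRC-like cells (10.5 ± 2.0 CPM against 26.6 ± 1.6 CPM, -1.33, adjusted p = 0.000501) and in migratory dendritic cell-like cells (24.3 ± 1.7 CPM against 44.8 ± 7.3 CPM, -0.79, adjusted p = 0.00534). Within single clusters the log2 fold change of Cyp27a1 was 0.88 in lec_8 (adjusted p = 0.470) and 0.05 in lec_11 (adjusted p = 0.991). It was -1.35 in fib_1 (adjusted p = 0.0389) and -0.70 in fib_9 (adjusted p = 0.551), and of these only the fib_1 difference was called. In live draining LNs lec_8 and lec_11 held 48 and 36 cells. Clusters lec_10 and lec_9, with 231 and 600 cells there, gave no test of Cyp27a1, so its LEC differences were not resolved within clusters. In MRC-like cells, ActSC-like cells, TRC-like cells and Cd209a DC-like cells Cyp27a1 was not called. Hsd11b2, which encodes a steroid dehydrogenase, was higher in MRC-like cells (2.31, adjusted p = 0.0388) and lower in cluster fib_5 (-1.69, adjusted p = 0.0152) of live draining LNs.

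The oxysterol-sensing liver X receptor genes were lower in MedRC-like cells of live draining LNs, Nr1h2 at 46.0 ± 7.1 CPM against 68.1 ± 5.4 CPM in live non-draining LNs (log2 fold change -0.55, adjusted p = 0.0169) and Nr1h3 at 19.4 ± 3.6 CPM against 35.3 ± 6.7 CPM (-0.85, adjusted p = 0.0173). Both belong to a list of receptors and their targets of which 4 of 8 were lower there and 1, Lpcat3, higher, where 4.08% of all genes were called lower. Within fib_1 alone 3 of 8 were lower, Nr1h2 (-0.69, adjusted p = 0.0304), Nr1h3 (-0.96, adjusted p = 0.0335) and Mylip, where 2.7% of all genes were called lower, and within fib_9 edgeR called none of 6 (1 with an unadjusted p under 0.05). In macrophage-like cells 3 of 7 were lower, namely the cholesterol exporter genes Abca1 (295 ± 44 CPM in live draining LNs against 539 ± 63 CPM, adjusted p = 0.00874) and Abcg1 (259 ± 74 CPM against 447 ± 73 CPM, adjusted p = 0.0208) and Mylip (106 ± 11 CPM against 192 ± 13 CPM, adjusted p = 0.00373), where 3.28% of all genes were called lower. The Pf4 cluster imm_13 was 77.1% ± 3.1 of macrophage-like cells in live draining LNs and 48.97% ± 5.0 in live non-draining LNs, and imm_19, led by Marco and Cd209b, 22.9% ± 3.1 and 51.0% ± 5.0. Within imm_19 alone Abca1 (-1.17, adjusted p = 0.00507) and Mylip (-1.08, adjusted p = 0.0131) were lower, 2 of 7 where 2.11% of all genes were called lower. Within imm_13 edgeR called none of 7 (1 unadjusted), with Abca1 at -0.31 and Mylip at -0.16 (adjusted p = 0.641 and 0.890), and Abcg1 was called in neither. In cLEC-like cells Nr1h2 and Nr1h3 were not called (0.08 and 0.02, adjusted p = 0.611 and 0.986). Of sterol transport genes, the lysosomal carrier Npc2 was higher in live draining LNs in cLEC-like (0.43), MedLEC-like (0.61) and fLEC-like cells (0.38) and in cluster fib_5 (0.47), with adjusted p of 0.000361 to 0.0175. Within single clusters it was called in lec_0 (0.54, adjusted p = 0.0127) and lec_10 (0.89, adjusted p = 0.00274). It was not called in lec_11 (0.25, adjusted p = 0.503), which held only 36 fLEC-like cells of live draining LNs.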

How the data were processed

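The authors aligned reads of the 16 libraries to mm10 with Cell Ranger 3.0.1 and deposited UMI counts per gene and barcode, without normalization. The deposited raw counts were used as given. Following the limits in the study's methods, a cell needed 200 to 6000 genes with a UMI and no more than 30% mitochondrial UMIs. The 4 genes, the gene lists and the markers were chosen with earlier results of these data known. Without the 4 genes, cells were normalized with SCTransform (sctransform 0.4.2) and then clustered with Seurat 5.3.0 (R 4.3.3) (2000 variable genes, 20 principal components, resolution 0.8, seed 1), first together and then within fibroblastic cells, LECs and immune cells. The clustering of immune cells on their own and the limits for a name (a score of at least 0.45, the next class at most 0.75 of it, at least 3 markers found) were settled after clusters had been seen. Names differ from the study's own where these rebuilt clusters differ. Doublets stayed in. The automatic threshold of scrublet in scanpy 1.11.5 marked 19 cells (0.0377%), so 1464 cells (2.91%) were marked by rank for an alternative.

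UMIs were summed per library and cell type with at least 10 cells and tested with edgeR 4.0.16 (TMM, filterByExpr, glmQLFit and glmQLFTest over all 5 groups, Benjamini-Hochberg adjustment over all genes of the cell type, calls at an adjusted p under 0.05), in 40 cell types or clusters, of which 31 gave a test for at least 1 of the 4 genes. On simulated counts with the sizes of MRC-like, TRC-like and B cell-like cells, 48%, 79% and 63% of 2-fold changes and 96%, 95% and 97% of 4-fold changes were recovered. For shares, cells under 2000 UMIs were left out. As no cluster was named for other T cells, cluster imm_11 stood in as the background for the 3 enzymes. Counting intervals are exact and cover counting error only.

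The named genes are the 4 genes, up to 4 called members of each list and cell type with the smallest p, Cyp27a1, Nr1h2, Nr1h3 and Insig1 always, and the 5 genes most like each of the 4. A few genes that this rule or a marker list names are not reported here by name, but stay in the counts. Positions are from gencode vM21 and promoter sequences from RefSeq. The search for motifs covered both strands. Alternatives were DESeq2 1.42.0, RLE factors, no filter, replicate letters as a block, the 12 libraries of inoculated mice, each library left out, at most 10% mitochondrial UMIs, marked doublets left out, LogNormalize and direct gates on marker UMIs. Clusters taken alone, and MRC-like cells joined with fib_5, were alternatives chosen after seeing the data. Figures were drawn with matplotlib 3.10.9.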

Additional observations from a re-analysis of the deposited data

Results flagged for a closer look

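The live and fixed draining effects on the 4 genes differed, by the interaction test of edgeR, for Ch25h in cLEC-like cells (-3.69 on the log2 scale), Ch25h in MRC-like cells (-1.41) and Gpr183 in migratory dendritic cell-like cells (1.77). The same test picked out sterol genes in cLEC-like cells, among them Sqle (2.04), Fdps (1.385), Insig1 (1.095), Npc2 (0.51) and Rora (-0.61). In MedLEC-like cells it picked out, among others, Cyp27a1 (1.36), Npc2 (0.93) and Stard4 (-0.85), and in MedRC-like cells Lpcat3 (1.21). Each is the live effect minus the fixed effect. Cyp7b1 in pericyte-like and smooth muscle-like cells was 69.1 CPM in naive C, far from 36.5, 37.5 and 40.6 CPM in the other naive libraries, and chance sets 1 sample apart in this way in about 1 in 20 groups.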

How the results depend on the processing

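The counts of calls among the 4 genes were 4 between live LNs, 1 between fixed LNs and 3 in the interaction. Without a filter on low counts they were 7 and 2 for the first and the second. After LogNormalize, with direct gates, and without fixed non-draining B the fixed count was 0. Leaving out each library gave 3 to 5, 0 to 1 and 3 to 4 calls, and 12 to 16 called sterol genes in cLEC-like cells, against 16 with all libraries. In clusters lec_3, lec_5, lec_6 and lec_7 alone that count was 0, 1, 0 and 0, with 7 to 17 genes tested, and in lec_0 it was 11. With direct gates the log2 fold change of Ch25h between fixed LNs was -0.65 for the fibroblastic cells that hold the MedRC-like ones, and the interaction was 0.65 in place of that of MRC-like cells, since a gate joins all fibroblastic cells. The level of Cyp7b1 in Cd209a DC-like cells was 0.878 CPM after LogNormalize, which split this cluster. Shares of cells with a UMI depend on depth. Without thinning they were 65.1% for Ch25h in fib_2, 21.5% for Cyp7b1 in imm_6, 2.79% for Hsd3b7 in lec_2 and 50.7% for Gpr183 in imm_11, and at 1000 UMIs 7.60% for Cyp7b1 and 18.2% for Gpr183 in the same clusters. Of 159 pairs of libraries with 1 letter, 3 correlated over 0.1 (r -0.11 to 0.139). Pairs of different letters were not compared, so these values cannot tell whether a letter marks a mouse. With the replicate block, calls numbered 4, 1 and 4, and the live log2 fold change was -1.04 for Ch25h in MRC-like cells, -2.88 for Ch25h in cLEC-like cells and 1.29 for Gpr183 in migratory dendritic cell-like cells.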
